A study of Mus musculus with 4 samples.

Results

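The genes of lipid metabolism followed in nuclei of the adult mouse dentate gyrus were Thrsp, Srebf1, Acly, Acaca, Fasn, Scd1, Scd2, Hmgcs1 and Cpt1a. They were taken by name, as 9 of the 45706 features that were counted, and their levels were compared across radial glia-like stem cells (RGL), neural progenitor cells (NPC), neuroblasts (NB1 and NB2), immature, young and mature granule cells (GCimm1, GCimm2, GCyoung, GCmat1 and GCmat2) and the glia sorted with them. The nuclei came from mice of both sexes, for which the methods give an age of 6 to 8 weeks without an age at collection, with a tamoxifen-inducible Cre driver and the CAGfloxStop-Sun1/sfGFP reporter, in which tamoxifen switches on a green nuclear envelope protein in the cells that express the driver and in all their progeny. GFP-positive nuclei of the left dentate gyrus were sorted 1, 2, 4 and 8 weeks after tamoxifen, and these libraries are called w1, w2, w4 and w8. Every mouse carried both alleles and received tamoxifen, no unlabelled or untreated group was analysed here, and each week was 1 library made from a pool of 4 mice, so differences between weeks could not be tested.

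A cell makes fatty acids from citrate. ATP citrate lyase, the product of Acly, releases acetyl-CoA from it, acetyl-CoA carboxylase (Acaca) turns acetyl-CoA into malonyl-CoA, and fatty acid synthase (Fasn) joins these units into palmitate. The stearoyl-CoA desaturases Scd1 and Scd2 then place a double bond in the chain, and Hmgcs1 takes acetyl-CoA in the other direction, toward cholesterol. Srebf1 encodes a transcription factor that drives many of these genes, and Thrsp (Spot 14) encodes a small nuclear protein that has been tied to lipogenesis and is known as a transcript of hippocampal stem cells. Cpt1a sits on the opposing route: it carries long-chain fatty acids into mitochondria for oxidation, and malonyl-CoA, the product of Acaca, inhibits it. Adult neural stem cells are known to use both fatty acid synthesis and fatty acid oxidation, which is why these genes were read side by side.

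Promoter sequence is shown for 3 of the genes that stand at different points of this route: the regulator Thrsp, the synthase Fasn and the sterol gene Hmgcs1. Each run gives the 250 bases before the RefSeq start site on GRCm38.p6, 5′ to 3′ on the strand of the gene, with motif letters in capitals. The Thrsp window lies at chr7:97417551-97417800 on the minus strand, the Fasn window at chr11:120824548-120824797 on the minus strand and the Hmgcs1 window at chr13:119690101-119690350 on the plus strand.
Thrsp: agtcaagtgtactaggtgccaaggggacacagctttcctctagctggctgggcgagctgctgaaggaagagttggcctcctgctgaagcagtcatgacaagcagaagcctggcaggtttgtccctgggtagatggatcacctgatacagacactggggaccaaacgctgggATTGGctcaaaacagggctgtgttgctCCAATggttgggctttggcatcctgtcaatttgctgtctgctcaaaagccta
Fasn: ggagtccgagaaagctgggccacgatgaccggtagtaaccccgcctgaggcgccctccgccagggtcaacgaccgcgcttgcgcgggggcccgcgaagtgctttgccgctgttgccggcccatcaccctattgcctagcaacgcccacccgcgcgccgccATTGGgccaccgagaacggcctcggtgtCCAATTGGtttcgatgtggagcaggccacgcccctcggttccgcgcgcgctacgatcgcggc
Hmgcs1: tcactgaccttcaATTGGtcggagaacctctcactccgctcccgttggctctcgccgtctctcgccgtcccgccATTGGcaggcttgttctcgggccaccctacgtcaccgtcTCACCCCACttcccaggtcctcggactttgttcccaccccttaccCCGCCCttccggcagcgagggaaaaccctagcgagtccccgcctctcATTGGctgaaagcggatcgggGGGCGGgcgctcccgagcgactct
The motifs searched on both strands were CACGTG (an E-box), TCACNCCAC (the core of a sterol regulatory element), CCAAT (an NF-Y box) and GGGCGG (an Sp1 box). Thrsp held 2 NF-Y boxes, at 79 and 52 bases before the start. Fasn held 3 NF-Y boxes, of which the ones at 62 and 59 bases before the start overlap on opposite strands. Hmgcs1 was the only window of the members with the sterol regulatory element core, at 137 bases before its start, and it also held 3 NF-Y boxes and 2 Sp1 boxes. The RefSeq table gave windows for 7 of the 9 members, 9 windows in all since Srebf1 has 3, and none of them held CACGTG. Of 32851 promoters of the same length, 6.02% held the E-box, 1.05% the sterol element core, 33.8% the NF-Y box and 32.7% the Sp1 box. These matches describe letters and not binding. The gene model used for the positions starts Thrsp further upstream than RefSeq does, so part of the Thrsp window lies within that model. The Acaca and Cpt1a windows and windows 2 and 3 of Srebf1 lie wholly within their gene models. Bases before the model starts of Acaca and Cpt1a were thus not searched.

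The genes lie on 4 chromosomes of GRCm38. Acaca (chr11:84129672-84401651, plus strand), Acly (chr11:100476353-100528000, minus), Fasn (chr11:120805846-120824547, minus) and Srebf1 (chr11:60199089-60222581, minus) are on chromosome 11. Scd2 (chr19:44293674-44306864, plus), Scd1 (chr19:44394455-44407879, minus) and Cpt1a (chr19:3322334-3385733, plus) are on chromosome 19, Thrsp is at chr7:97412938-97417730 on the minus strand and Hmgcs1 at chr13:119690379-119708260 on the plus strand. UMIs were counted over exons and introns, and 3 members share bases with a gene on the opposite strand: Srebf1 with Rai1 over 0.109 kb, Acaca with Gm11437 over 19.1 kb and Hmgcs1 with the antisense gene Gm48342 over 6.19 kb. Scd1 and Scd2 are paralogs, and reads that mapped to several places had been left out. Counting was by the default parameters of STARsolo, which keep reads on the strand of the gene, although the methods do not spell out the strand setting.

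Levels are raw UMIs of a gene per 1000000 UMIs of the same nuclei (CPM), with exact Poisson intervals at 95% that cover counting error only. The 14367 nuclei and their 13 clusters were those the authors kept. The libraries held between 13227971 and 28595331 UMIs, and the median nucleus had 4369 UMIs in w1 and 7703.5 in w8. RGL numbered 1387 nuclei (486, 461, 357 and 83 in w1, w2, w4 and w8), NPC 211 and astrocytes (Astro) 67. The cluster names were read against marker lists. Of the 6 NPC markers in the files all 6 were highest in NPC, as were 6 of 6 in oligodendrocytes (Oligo) and 6 of 6 in oligodendrocyte precursors (OPC), and 5 of 6 astrocyte markers were highest in Astro. Of the 7 RGL markers, 3 were highest in RGL and 3 in Astro, so RGL and astrocytes were separated less sharply by these lists. The cluster named pericytes (Peri) held all 6 vascular leptomeningeal markers at their highest level, with a sum of 5951 CPM. Of the 5 pericyte markers 3 were also highest in it and 2 were at 0, with a sum of 111 CPM on 35 UMIs. It is called Peri here only as the deposited name.

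**Figure D1:**
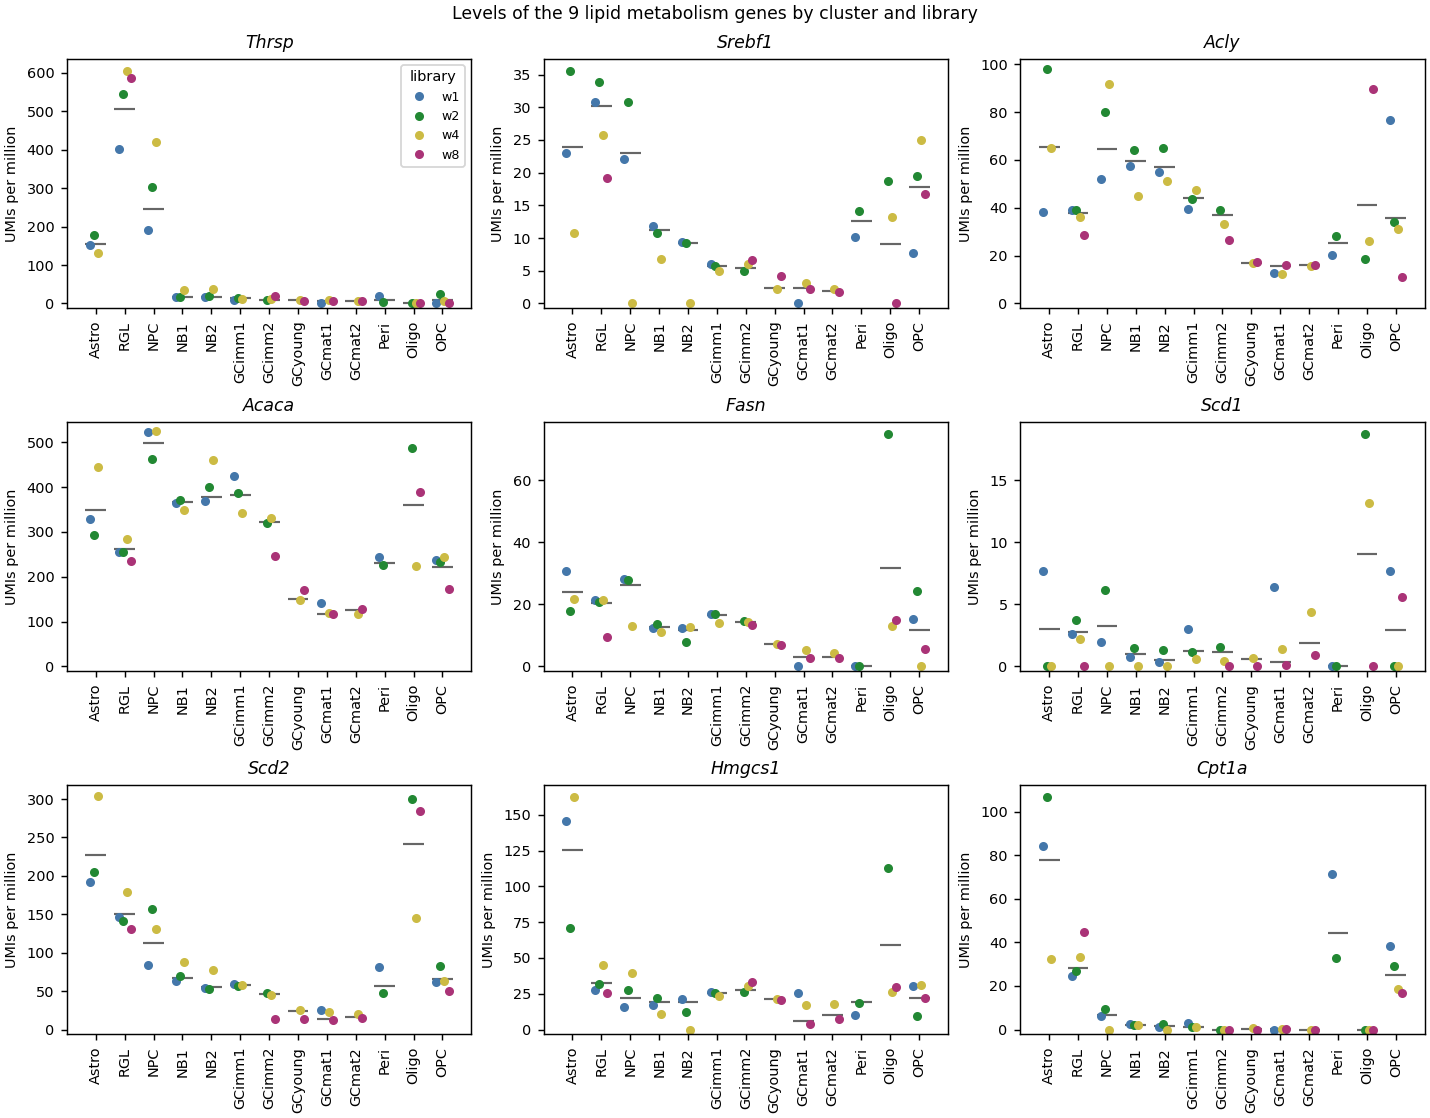
Level of each of the 9 lipid genes (1 panel a gene, CPM on a linear axis from 0) in every deposited cluster. Points are single libraries with at least 10 nuclei, coloured by week, and the short line is the level over all nuclei of the cluster. Thrsp stands at 506 in RGL and 7.37 in GCmat1 with 0 in Oligo, Cpt1a at 77.6 in Astro and 0.137 in GCmat1 with 0 in GCimm2, GCmat2 and Oligo, and Acaca stayed between 117 and 497 across the clusters from RGL to GCmat1.

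The regulators came first. The paper names Thrsp among the markers raised in RGL over astrocytes. Its high level in RGL is thus partly set by the cluster name. Thrsp was highest in RGL, at 506 CPM (interval 489 to 524), with 401, 544, 606 and 586 in the libraries w1, w2, w4 and w8, the order of all library values in brackets. A library with fewer than 10 nuclei of a cluster has no value, so that NPC and Astro have w1, w2 and w4, and Oligo has w2, w4 and w8. NPC stood at 246 CPM (190, 302 and 419) and Astro at 155 CPM (153, 178 and 130). The RGL and NPC ranges overlapped, since NPC of w4 exceeded RGL of w1, but RGL was the higher cluster in each of the 3 libraries that held both. The Astro range lay below the NPC range. From the first neuroblasts on the level was low: 17.6 CPM in NB1 (16.2, 17.9 and 35.8), 13.3 in GCimm1, 9.29 in GCyoung and 7.37 in GCmat1. RGL thus held 68.7 times the level of GCmat1. Among glia outside the astrocyte lineage, OPC stood at 8.89 CPM from 6 UMIs, and Oligo had 0 UMIs in 45 nuclei. Over the 39 of them in libraries with at least 10, 3 counts correspond to 15.3 CPM, the limit used for this cluster.

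Srebf1, the lipogenic transcription factor, followed a flatter course. It stood at 30.2 CPM in RGL (30.9, 33.8, 25.8 and 19.1), 23.0 in NPC (22.0, 30.8 and 0) and 23.9 in Astro. These 3 clusters could not be separated by their library ranges. NB1 had 11.2 CPM, GCimm1 5.67 and GCmat1 2.30, which put RGL at 13.1 times GCmat1. In OPC the level was 17.8 CPM, and in Oligo 2 UMIs gave 9.10 CPM.

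The 3 synthesis enzymes did not share the Thrsp pattern. Acly stood at 37.9 CPM in RGL (39.1, 39.0, 36.1 and 28.7), at 64.6 in NPC (52.1, 80.1 and 91.7) and at 59.6 in NB1. It then fell through GCimm1 at 44.0 CPM and GCimm2 at 36.9 to 17.0 in GCyoung and 15.6 in GCmat1. NPC lay above RGL in all 3 libraries that held both. Astro, at 65.6 CPM, ranged from 38.3 to 97.9 on 22 UMIs, which overlapped RGL, NPC, NB1 and the immature neurons and lay above GCyoung and GCmat1.

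Acaca, the rate-limiting carboxylase, was highest in NPC. Its level there was 497 CPM (523, 462 and 524), against 261 in RGL (255, 256, 284 and 236), and the ranges did not touch. Neuroblasts and immature neurons stood above RGL, with 367 CPM in NB1, 383 in GCimm1 and 321 in GCimm2, of which only GCimm2 of w8, at 246 on 37 UMIs, reached into the RGL range. GCyoung (149 and 170 in w4 and w8) and GCmat1 (117) lay below it. Astro stood at 349 CPM (329, 294 and 444), Oligo at 360 (488, 223 and 389) and OPC at 221 (238, 234, 244 and 173). The RGL level was 2.24 times that of GCmat1, the smallest such ratio of the members that had one.

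Fasn was sparse throughout. It stood at 20.5 CPM in RGL (21.3, 20.7, 21.3 and 9.56), 26.3 in NPC (28.1, 27.7 and 13.1) and 23.9 in Astro, and these ranges overlapped. NB1 had 12.8 CPM, GCimm1 16.6, GCimm2 14.4, GCyoung 7.22 and GCmat1 3.15. The level in Oligo, 31.9 CPM, came from 7 UMIs, of which 4 were in w2.

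The desaturases were unequal. Scd1 was close to the detection limit in every cluster, with 17 UMIs in all RGL nuclei (2.79 CPM) and no cluster above 9.10 CPM. Scd2, the desaturase known as the main brain form, stood at 151 CPM in RGL (147, 141, 179 and 131), 227 in Astro (192, 205 and 303) and 241 in Oligo (300.1, 145 and 285). The Astro range lay above the RGL range. NPC had 113 CPM (84.2, 157 and 131) and overlapped RGL. The level then declined along the neuronal clusters, from 67.0 CPM in NB1 to 57.5 in GCimm1, 46.3 in GCimm2, 24.6 in GCyoung and 14.1 in GCmat1. RGL was at 10.7 times GCmat1. Within a library the last step was small, 25.7 to 23.3 CPM in w4 and 13.9 to 12.7 in w8. The low GCmat1 level, and with it the ratio, was that of the w8 nuclei, which made up most of the cluster. OPC, at 65.2 CPM (61.4, 82.7, 62.6 and 50.1), lay below every RGL and Oligo library.

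Hmgcs1, which starts the sterol branch, was highest in astrocytes. Astro stood at 125 CPM (146, 71.2 and 163), and its range met only that of Oligo, where w2 reached 113 on 6 UMIs. RGL had 32.6 CPM (27.4, 31.5, 44.9 and 25.5), NPC 21.9, NB1 18.9, GCimm2 27.5 and GCyoung 21.1 (21.0 and 20.9 in w4 and w8). GCmat1 held 5.62 CPM, but 25.6 in w1, 16.9 in w4 and 3.79 in w8, so the low level was that of the w8 nuclei, which made up most of the cluster. Oligo had 59.2 CPM on 13 UMIs.

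Cpt1a, the gate to mitochondrial oxidation, was highest in the Astro, Peri, RGL and OPC clusters. It stood in Astro at 77.6 CPM (84.3, 107 and 32.5), followed by the Peri cluster at 44.2 on 14 UMIs, RGL at 28.2 (24.4, 26.8, 33.1 and 44.6) and OPC at 25.2 (38.3, 29.2, 18.8 and 16.7). The ranges of each of these neighbours overlapped. NPC lay below them with 6.57 CPM from 6 UMIs (6.01, 9.24 and 0). In neurons it was nearly absent from the counts, at 2.20 CPM in NB1 and 1.36 in GCimm1. There were 0 UMIs in GCimm2 (interval up to 0.493 CPM), 8 UMIs in GCyoung and 4 UMIs in 3356 GCmat1 nuclei. Oligo also had 0 UMIs.

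Levels of different genes are set beside each other here only per kb of gene span, since introns were counted, and whether 3′ end UMIs scale with length was not tested. Per kb of gene, RGL had 106 CPM of Thrsp, 11.4 of Scd2, 1.82 of Hmgcs1, 1.28 of Srebf1, 1.10 of Fasn, 0.959 of Acaca, 0.733 of Acly, 0.445 of Cpt1a and 0.208 of Scd1. In Astro the order per kb was led by Thrsp at 32.4, Scd2 at 17.2 and Hmgcs1 at 7.01. In NPC Thrsp had 51.4 CPM per kb, Scd2 8.55 and Acaca 1.83. Acaca, which spans 272 kb, was thus high in raw UMIs and low per kb.

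Neighbouring clusters were then compared in order, from astrocytes to RGL and along the neuronal path. UMIs were summed per library and cluster, with at least 10 nuclei a sum, and tested with edgeR's quasi-likelihood test with cluster and library as terms. A call needed a fold change of 1.5 or more together with a p, adjusted by the Benjamini-Hochberg method over all genes tested, of 0.05 or less. Of the 9 members 8 were tested, since Scd1 had too few UMIs. Differences are log2 changes with their SE, from the first named cluster to the second. Since the authors drew the clusters from these very counts, a p-value here tells how far clusters lie apart and is no independent evidence of them.

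**Figure D2:**
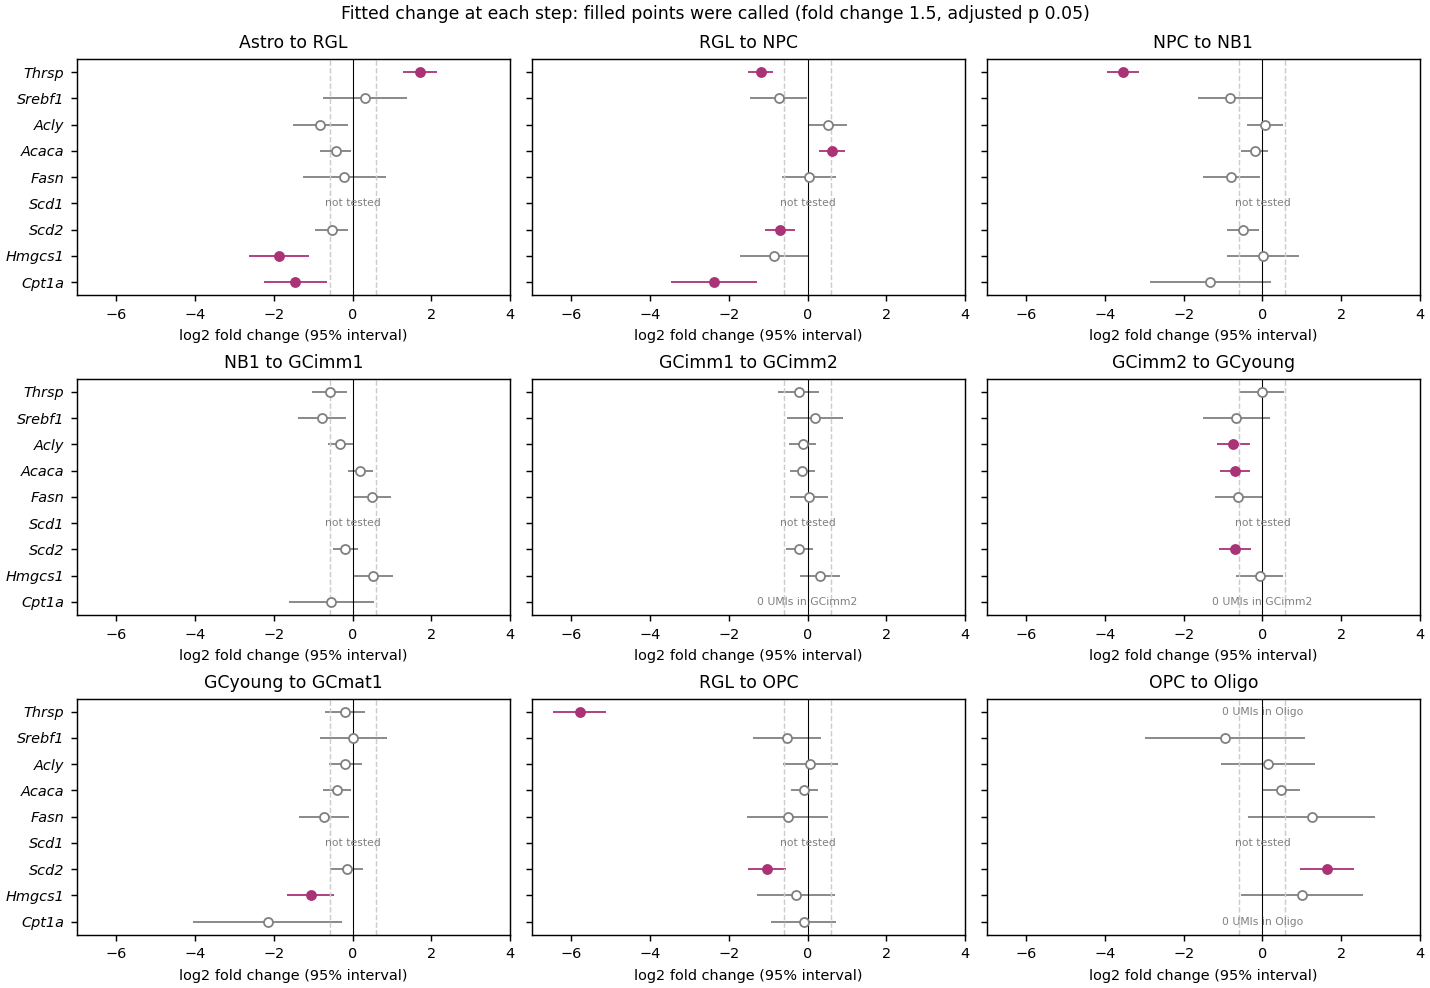
Log2 change of each tested member between neighbouring clusters (x axis, -7 to 4, edgeR) with 95% intervals; filled points passed a fold change of 1.5 (dashed lines) and an adjusted p of 0.05, open points did not, and a text such as "0 UMIs in GCimm2" replaces the point where a cluster held no UMI. Thrsp stands at -3.53 from NPC to NB1 and at -5.78 from RGL to OPC, while Cpt1a at -2.37 lies further from 0 than Thrsp at -1.19 from RGL to NPC.

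RGL and astrocytes differed in 3 members, and these pointed to different sides. Thrsp was higher in RGL (log2 1.71, SE 0.22, adjusted p = 1.916e-08), and this held in all 3 libraries that had both. Since Thrsp is among the paper's RGL markers, this call is partly set by the cluster name. Hmgcs1 was lower in RGL (-1.88, SE 0.38, adjusted p = 0.00025), and so was Cpt1a (-1.45, SE 0.40, adjusted p = 0.0112), although in w4 both clusters stood at about the same level (32.5 and 33.1 CPM). Of all genes 9.58% were called in this comparison, 4.77% higher and 4.82% lower in RGL. The astrocyte marker list summed to 9771 CPM in Astro and 3650 in RGL, and its part in the lower Hmgcs1 and Cpt1a was not tested. The uncalled values were -0.82 for Acly (95% interval -1.53 to -0.11), -0.53 for Scd2, -0.43 for Acaca, -0.21 for Fasn (-1.27 to 0.85) and 0.32 for Srebf1. The median over all genes was 0.27 here and 0.07 with relative log expression factors, and with those factors Acly, Scd2 and Acaca were called lower as well. Leaving out w1 or w2 ended the Cpt1a call (-1.22 and -1.08), and the thinned counts ended the Hmgcs1 call (-1.19, adjusted p = 0.1757 by edgeR).

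The wider pathway lists are given beside the 4.82% of all genes called lower and 4.77% called higher in RGL, a balance that moved with the scaling: 49.7% of all calls were higher here, 34.8% with relative log expression factors and 26.3% with DESeq2. The astrocyte markers also fell from Astro to RGL, as given above, and their part in these counts was not tested. Of 22 sterol synthesis genes tested 5 were lower in RGL than in Astro and 0 higher, with a median of -1.01, and lanosterol synthase (Lss) was among the lowest at -2.38 (SE 0.47, adjusted p = 0.0001785). Of 15 genes of desaturation and elongation 5 were lower, among them the elongase Elovl2 at -3.27 and the dehydratase Hacd2 at -2.18. Of 16 genes of fatty acid synthesis 3 were lower and 1, Thrsp, was higher, and the citrate carrier Slc25a1 stood at -2.43. Of 31 oxidation genes 4 were lower, with the coactivator Ppargc1a at -2.60, and of 20 genes of uptake, activation and storage 2 were lower, the acyl-CoA synthetases Acsl6 at -1.60 and Acsbg1 at -1.18. These lists hold some of the members and were written with earlier results of these data known.

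From RGL to NPC 4 of the 8 members were called, 1 higher and 3 lower. Thrsp fell (-1.19, SE 0.16, adjusted p = 2.551e-08), Cpt1a fell more steeply (-2.37, SE 0.55, adjusted p = 0.0005151) and Scd2 fell (-0.69, SE 0.19, adjusted p = 0.003494), in 2 of 3 libraries. Acaca rose (0.62, SE 0.17, adjusted p = 0.002569). Of all genes 29.5% were called, 13.7% higher and 15.9% lower. Acaca was thus higher in progenitors and Cpt1a lower, each in direction in all 3 libraries with both clusters. Any link between these RNA changes was not tested. The difference exceeded counting error in 3 of 3 libraries for Acaca and in 1 of 3 for Cpt1a, which had 3, 3 and 0 UMIs in NPC. Acly (0.52, 0.04 to 1.01), Hmgcs1 (-0.86), Srebf1 (-0.73) and Fasn (0.03, -0.65 to 0.72) did not pass. The Acaca rise lay close to the fold threshold, and its call was lost in 7 of 13 alternatives: without w1 (0.51) or w8 (0.56), with a minimum of 5 (0.57) or 20 nuclei (0.55), without the low-count filter (0.54), with every nucleus thinned to 2000 UMIs (0.58) and at a fold change of 2. The Scd2 call was lost without w1 (-0.42), when thinned (-0.36) and at a fold change of 2, while Hmgcs1 was called when thinned (-1.46, adjusted p = 0.03408).

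In the lists, which hold these members, the counts stand beside the 15.9% of all genes that were lower. Of 31 oxidation genes 11 were lower, 0 higher and 20 not called, with a median of -0.90 against -0.05 over all genes. Ppargc1a was at -3.81 (SE 0.48, adjusted p = 3.584e-09, edgeR). The thiolase Acaa2 had 55 UMIs in RGL and 0 in NPC, 2.7-fold lower with 0 set at the limit of 3 counts. Of 20 genes of uptake, activation and storage 9 were lower and 0 higher, with a median of -1.35. Among these were the acyl-CoA synthetase Acsl3 at -3.09 and the triglyceride lipase Pnpla2 at -3.13. Sterol synthesis had 4 of 22 lower, including Nsdhl at -2.02 and Msmo1 at -1.64, and fatty acid synthesis 6 of 16 lower and 1, Acaca, higher, with Insig1, a brake on sterol regulation, at -1.79. Desaturation and elongation split, 4 of 15 lower and 2 higher, and the elongase Elovl2 rose by 3.04. Over the same step the 7 RGL markers summed to 6606 CPM in RGL and 1928 in NPC, with Hes5 at 85.6 and 17.5 and Gfap at 115 and 24.1. The 6 astrocyte markers summed to 3650 and 1034, with Glul at 129 and 38.3 and Aqp4 at 17.4 and 5.47. The part of either set of markers in the lower members and lists was not tested.

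From NPC to NB1 a single member was called. Thrsp fell by 3.53 on the log2 scale (SE 0.20, adjusted p = 2.279e-20), in all 3 libraries, while 29.3% of all genes were called, 14.7% higher and 14.6% lower. Scd2 (-0.50, adjusted p = 0.05506), Fasn (-0.79), Srebf1 (-0.83), Cpt1a (-1.32) and Acaca (-0.20, -0.54 to 0.14) fell short of the call, and Acly (0.07) and Hmgcs1 (0.01) were near 0 with intervals that reached 0.53 and 0.92. Scd2 was called without w1 (-0.73), with DESeq2 (-0.62), with relative log expression factors (-0.62) and when thinned (-0.74), and Fasn with relative log expression factors (-0.91). The summed RGL markers went from 1928 CPM in NPC to 330 in NB1, and their part in the Thrsp difference was not tested. In the lists, uptake, activation and storage had 4 of 20 lower, with Acsbg1 at -4.06 and the fatty acid binding protein Fabp7 at -1.64, sterol synthesis 4 of 22 lower, and oxidation 5 of 31 in each direction, with the dehydrogenase Acadl at -2.17 and the carnitine acetyltransferase Crat at 2.29. Fatty acid synthesis had 3 of 16 lower, among them Acacb, the mitochondrial sister of Acaca, at -2.79 and the sugar-sensing factor Mlxipl at -2.73, and 1 higher, Insig2 at 1.16. Desaturation and elongation had 4 of 15 higher and 2 lower.

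From NB1 to GCimm1 no member was called by edgeR, against 12.5% of all genes, 7.76% higher and 4.75% lower. Among the uncalled values were Thrsp (-0.58, -1.02 to -0.14), Srebf1 (-0.78), Fasn (0.50) and Hmgcs1 (0.51). DESeq2 called 0 as well, while with every nucleus thinned to 2000 UMIs edgeR called Thrsp lower (-1.01, adjusted p = 0.008654). The sterol list had 4 of 22 higher and 0 lower at this step, with Stard4, a sterol carrier, at 1.79. Abca1, which exports cholesterol, was at -1.76 and then at -2.18 from GCimm1 to GCimm2. The remaining lists had at most 2 genes called in either direction, and fatty acid synthesis 0 of 16.

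From GCimm1 to GCimm2 the call rested on Cpt1a alone, with 18 UMIs in GCimm1 and 0 in GCimm2 (adjusted p = 0.01065, edgeR). With 0 set at the limit of 3 counts its level was 3.39-fold lower. Of all genes 9.43% were called, 6.52% higher and 2.91% lower. The call was lost without w2 and without w4, and DESeq2 did not make it (adjusted p = 0.116). Sterol synthesis again had 3 of 22 higher and 0 lower, with the reductase Dhcr7 at 1.09. Uptake, activation and storage had 2 of 20 higher and 1 lower, oxidation 1 of 31 higher and 2 lower, and the other lists had 0 called by edgeR.

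From GCimm2 to GCyoung 3 members fell. Acly fell (-0.74, SE 0.21, adjusted p = 0.006767), Acaca fell (-0.69, SE 0.19, adjusted p = 0.004841) and Scd2 fell (-0.69, SE 0.20, adjusted p = 0.009793), with 18.9% of all genes called, 9.27% higher and 9.62% lower. Fasn stood at -0.61 (-1.20 to -0.02, adjusted p = 0.1486), Srebf1 at -0.66, Hmgcs1 at -0.07 and Thrsp at -0.02. Cpt1a went from 0 to 8 UMIs and was not called. Of the libraries with both clusters, w4 and w8, Acly and Acaca were lower in both. Scd2 was lower in w4 (44.9 to 25.7 CPM) and not in w8 (13.3 to 13.9). All 3 differences exceeded counting error in w4 and none did in w8. GCimm2 of w8 had 28 nuclei, with 4 UMIs of Acly, 37 of Acaca and 2 of Scd2. Each of the 3 calls was lost without w2 and without w4, where Acaca was -0.64 and -0.44, Acly -0.69 and -0.58, and Scd2 -0.51 and -1.10, so the adjusted p passed 0.05 in each case while not every fold shrank. The Acly call was also lost when thinned (-0.76) and the Scd2 call without the low-count filter (-0.65), and GCyoung had only the libraries w4 and w8. Around them, Elovl6, which elongates palmitate, was at -0.84, the malic enzyme Me1, which supplies NADPH, at -1.30 and the lipid droplet coat Plin2 at -2.35. In the other direction moved Mgll, which cleaves monoglycerides, at 2.43, the triglyceride synthase Dgat2 at 1.27 and Ppargc1a at 1.25. In counts, fatty acid synthesis had 4 of 16 lower and 1 higher, desaturation and elongation 3 of 15 lower, sterol synthesis 2 of 22 lower, uptake, activation and storage 2 of 20 each way and oxidation 2 of 31 higher.

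From GCyoung to GCmat1 Hmgcs1 fell (-1.06, SE 0.30, adjusted p = 0.02593) and no other member was called, with 3.85% of all genes called, 1.6% higher and 2.25% lower. Without w8 the difference was -0.26, and DESeq2, the fit with no library term and the thinned counts did not call it. Fasn (-0.73), Acaca (-0.39) and Cpt1a (-2.15) did not pass, and Thrsp was at -0.19 (-0.70 to 0.32). In the sterol list 5 of 22 genes, Hmgcs1 among them, were lower and 0 higher, with Msmo1 at -1.28 and Fdft1, squalene synthase, at -1.10. At the same step the 6 astrocyte markers summed to 212 CPM in GCyoung and 119.5 in GCmat1. Of these markers Glul was at 7.10 and 2.43 CPM, while Aqp4 was level at 0.866 and 0.857. The 7 RGL markers together rose from 76.5 to 105.8 CPM, although Gfap, which is among them, was at 2.42 and 0.445. Apoe, on neither marker list, was at 46.7 and 14.4 CPM. Free RNA was not estimated, and the part of these transcripts in the lower sterol genes was not tested. The other lists had at most 1 gene called in either direction.

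RGL were also set beside OPC, the other precursor in the sort, in a fit over all clusters. Thrsp was lower in OPC (-5.78, SE 0.33, adjusted p = 2.557e-21) and Scd2 was lower (-1.04, SE 0.24, adjusted p = 0.0004396), with 29.7% of all genes called, 14.5% higher and 15.2% lower. Cpt1a (-0.10, -0.93 to 0.73), Acaca (-0.09, -0.43 to 0.25) and Acly (0.08, -0.61 to 0.76) were not distinguished at this depth. The sterol list had 6 of 21 lower and 0 higher, with Nsdhl at -2.59. Mlxipl went from 153 UMIs in RGL to 0 in OPC, 5.65-fold lower with 0 set at the limit. Uptake, activation and storage had 7 of 17 lower, fatty acid synthesis 4 of 16 lower and 1 higher, desaturation and elongation 4 of 15 lower and 3 higher, and oxidation 3 of 26 lower.

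From OPC to Oligo Scd2 rose (1.63, SE 0.34, adjusted p = 0.0001549) and Cpt1a fell from 17 UMIs to 0 (adjusted p = 0.02466, edgeR). With 0 set at the limit of 3 counts Cpt1a was 1.65-fold lower, which leaves out counting error in the 17 UMIs. Of all genes 20% were called, 6.7% higher and 13.2% lower. The median log2 change over all genes was -0.43 here, -0.30 with relative log expression factors and -0.19 with DESeq2. Of the calls 33.6% were higher, against 42.4% with DESeq2. The Cpt1a call was lost when any 1 of the 4 libraries was left out, with DESeq2 and with thinned counts, and the Scd2 call was kept each time. Acaca (0.47), Fasn (1.25, -0.36 to 2.85) and Hmgcs1 (1.00, -0.55 to 2.55) were not called, on the 39 Oligo nuclei of w2, w4 and w8, but Acaca was with DESeq2 (0.59, adjusted p = 0.04983) and in the fit of glia and RGL alone (0.66, adjusted p = 0.04724). In the lists, sterol synthesis had 4 of 21 higher and 0 lower. Acss2, which makes acetyl-CoA from acetate, was at 3.07 and the elongase Elovl7 at 3.89. Ppargc1a went from 34 UMIs to 0, 3.29-fold lower with 0 set at the limit. Apoe, a lipid carrier, was at -2.32. In counts, fatty acid synthesis had 2 of 16 higher and 1 lower, desaturation and elongation 3 of 15 higher and 1 lower, uptake, activation and storage 3 of 17 each way and oxidation 2 of 26 lower.

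The Thrsp level could come from a few nuclei or from many. Of the 1387 RGL nuclei 68.1% (Clopper-Pearson 95% interval 65.5 to 70.5) had at least 1 Thrsp UMI and 32.7% had 3 or more, up to 23 in a single nucleus. With each nucleus thinned to 2000 UMIs, which left out 141 of all nuclei as too shallow, the share with a UMI was 50.3% in RGL (47.6 to 53.0), 30.6% in NPC (24.4 to 37.4) and 26.9% in Astro (16.8 to 39.1). The same share was 1.55% in GCmat1 (5.69% before thinning) and 3.05% in OPC (0.838 to 7.63). Free RNA was not estimated, so these low shares were not read as expression. In RGL the thinned counts had a mean of 1.01 and a variance of 1.93, so Thrsp varied between stem cell nuclei by more than counting alone gives. Acaca, with a mean of 0.531 and a variance of 0.640 in the same nuclei, lay closer to counting error.

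**Figure D3:**
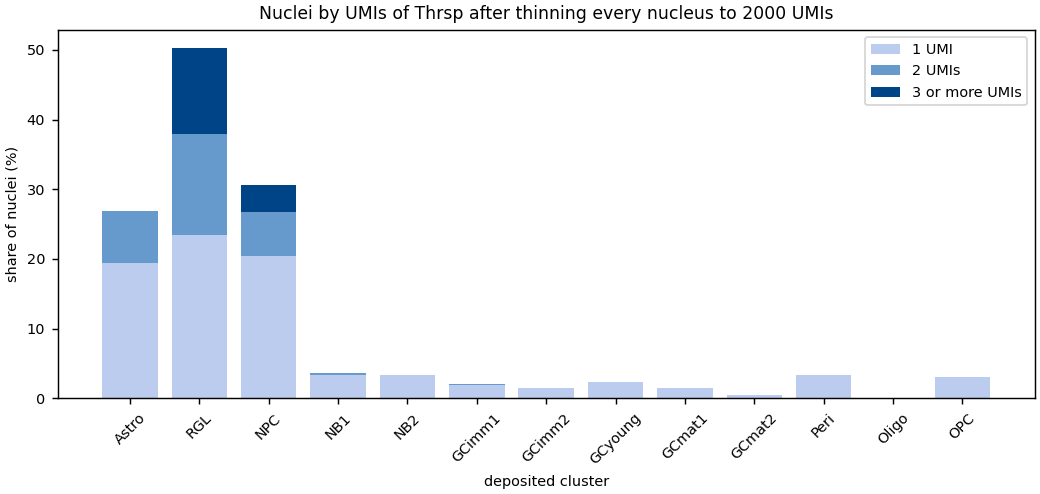
Share of nuclei (y axis, percent) with 1, 2 and 3 or more Thrsp UMIs, stacked, after each nucleus was thinned to 2000 UMIs, for each deposited cluster. In RGL 50.3% of the nuclei kept at least 1 UMI and 12.4% kept 3 or more, and in GCmat1 1.55% kept any.

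Among stem cells the weeks after tamoxifen differed in Thrsp. RGL of w1 held 401 CPM (376 to 428), and the intervals of w2 (513 to 576), w4 (565 to 649) and w8 (505 to 678) all lay above it, while the interval of w2 overlapped those of w4 and w8. The nuclei were not spread alike over the authors' pseudo-time, which places each nucleus along the path: the first bin, where Thrsp was lower, held 298 nuclei of w1 and the second 155, against 89 then 350 for w2, 98 then 244 for w4 and 61 then 22 for w8. Within the first bin w1 (351 to 412) overlapped w2 (378 to 494) and lay below w4 (457 to 593) and w8 (470 to 662). Within the second bin w1 (416 to 535) lay below w2 (539 to 616) and w4 (598 to 707) and overlapped w8 (499 to 903). NPC moved the same way, from 190 CPM in w1 to 302 in w2 and 419 in w4. The intervals cover counting error only, and Thrsp varied between RGL nuclei by more than that, so they are too narrow to separate weeks. Each week is 1 pool, so the week, the pool and the library cannot be told apart. The other members showed no such step: Acaca was between 236 and 284 CPM in RGL, Acly between 28.7 and 39.1, Scd2 between 131 and 179 and Srebf1 between 19.1 and 33.8, with overlapping intervals. Cpt1a was 24.4 CPM in w1 and 44.6 in w8, where 83 nuclei gave an interval of 24.4 to 74.9, and Hmgcs1 stood at 44.9 in w4 (34.4 to 57.7) against 27.4 in w1 (21.1 to 35.1). The summed RGL markers were 7137, 6268, 6367 and 6037 CPM in the same 4 sets of nuclei and the astrocyte markers 3948, 3371, 3250 and 5090. The RGL markers were thus highest in w1, where Thrsp was lowest, and the part of either list in the Thrsp difference was not tested. Median depth in RGL was 4450, 4466, 3555 and 3611 UMIs.

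**Figure D4:**
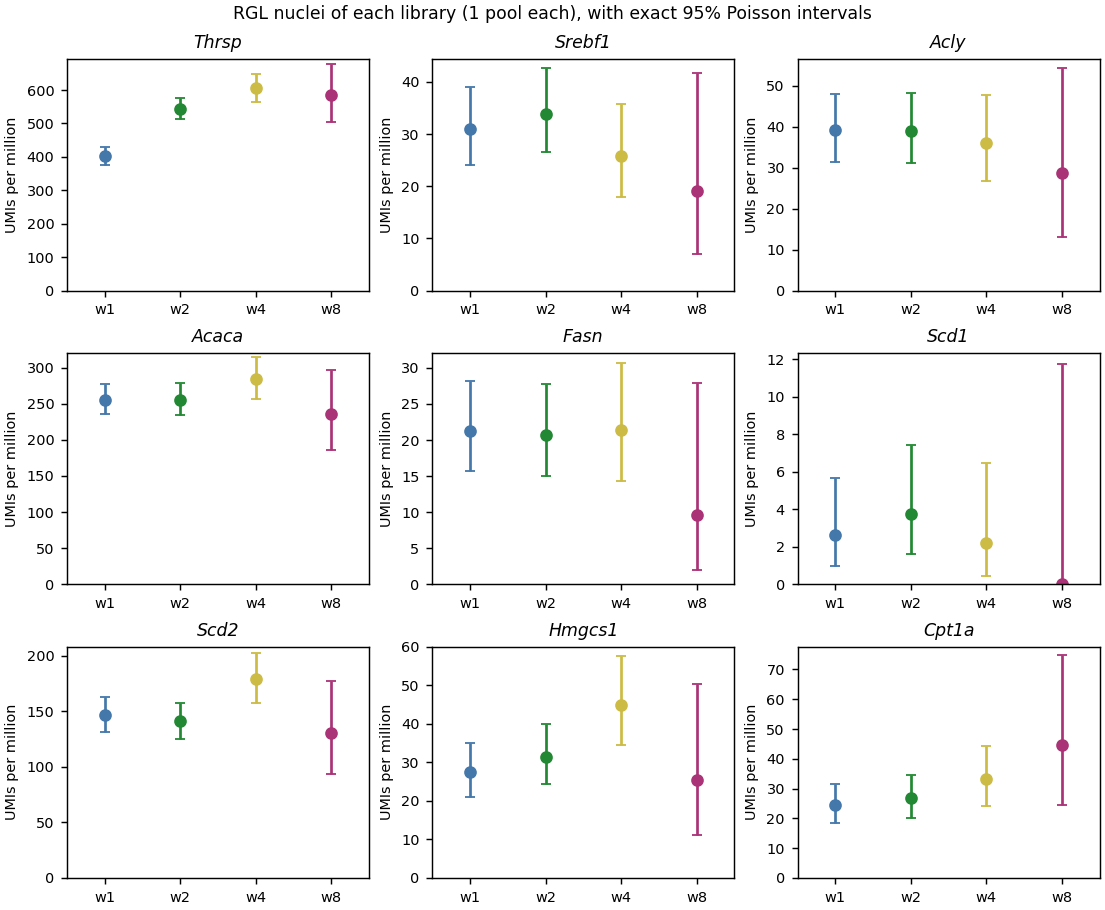
Level of each member (y axis, CPM) in RGL nuclei of w1, w2, w4 and w8 (x axis, weeks after tamoxifen, 1 pool each), with 95% Poisson intervals for counting error. Thrsp in w1, at 401, lies below the 3 later libraries, which run from 544 to 606.

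The authors gave each nucleus of the neuronal path a pseudo-time, a position along the fitted path, and this gives a finer order than clusters. It was fitted to the same expression values, so the course below is a description. Thrsp rose within RGL, from 428 CPM in the first bin (405 to 453) to 582 in the second (555 to 610), and the same order held in each library: 381 then 473 for w1, 433 then 577 for w2, 521 then 651 for w4 and 560 then 679 for w8. Nuclei of the first bin were deeper than those of the second in all 4 libraries, with median UMIs of 5358.5 against 3089 (w1), 5732 against 4161 (w2), 4633.5 against 3338.5 (w4) and 3945 against 3142 (w8). The part of depth in this order was not tested. The earlier of the bins that held mostly NPC had 401 CPM over 101 nuclei, of which 75.2% were NPC and the rest of other clusters, the later had 126 over 132 nuclei, 96.2% of them NPC, and the first NB1 bin had 41.6. Acly ran later: it was 37.7 CPM in both main RGL bins, 54.0 and 71.1 in the NPC bins, highest at 118 in the first NB1 bin, 102 in the next and 45.2 in the first GCimm1 bin. Acaca reached 517 CPM in the later NPC bin, stayed between 347 and 399 until the last GCimm1 bin, and came down to 112 in the mature neurons. Cpt1a was 33.4 CPM in the first RGL bin and 24.2 in the second, and lay at or below 4.44 from the first NB1 bin on.

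**Figure D5:**
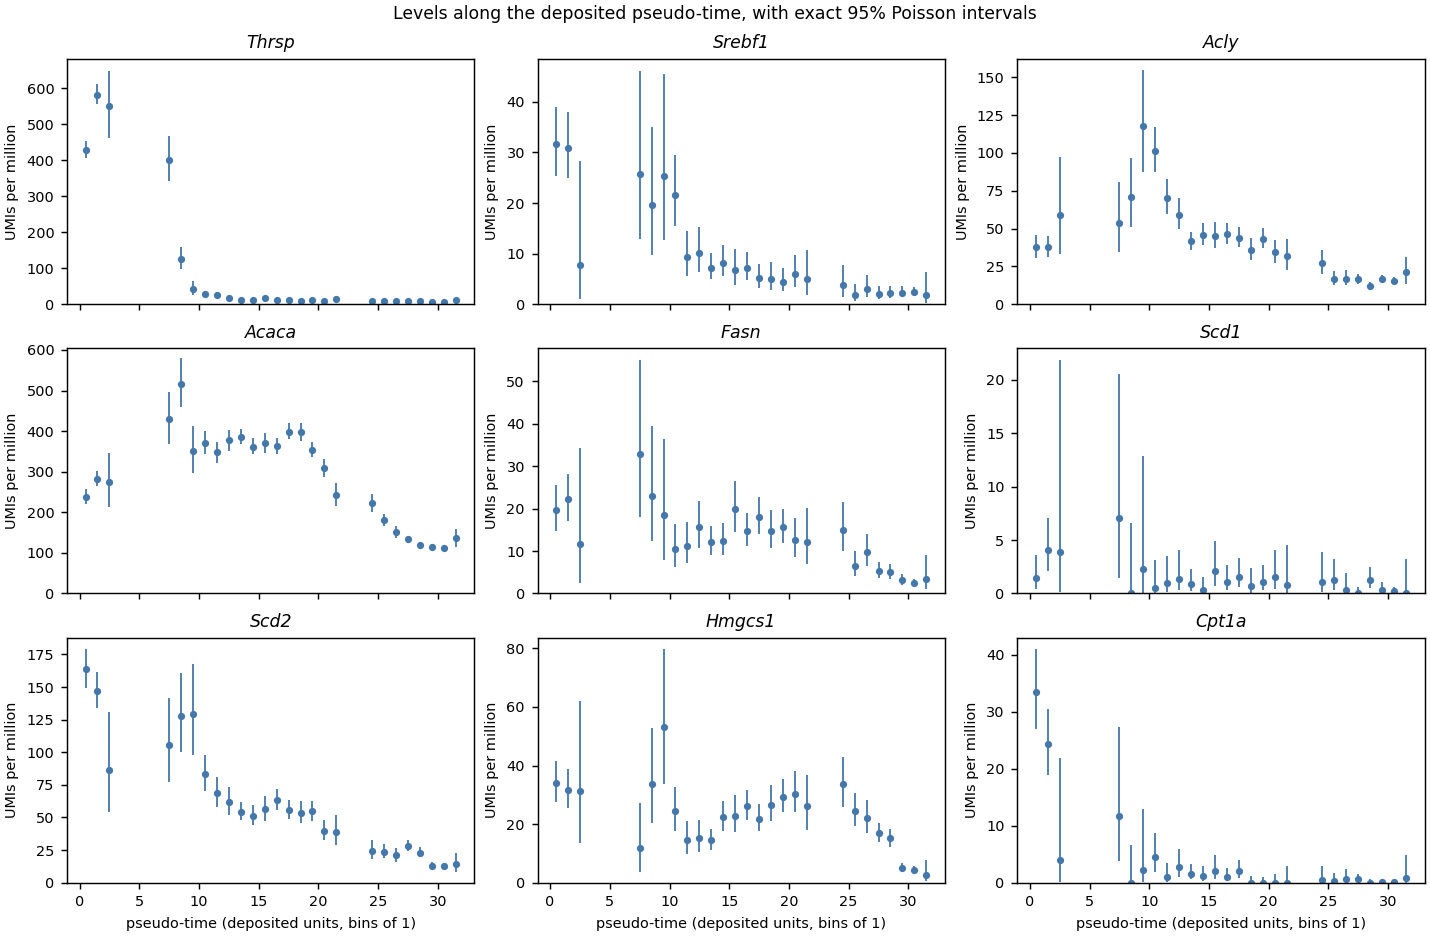
Levels of the members (1 panel a gene, y axis CPM from 0) along the deposited pseudo-time (x axis, its own units) in bins of width 1 with at least 20 nuclei, with 95% Poisson intervals. Thrsp is highest in RGL and falls to 41.6 by the first NB1 bin, where Acly reaches its peak of 118.

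NPC nuclei were divided by a UMI of Top2a or Mki67, genes of dividing cells, as a reading of cycling. This split is sparse, and 87 of 211 nuclei fell on the cycling side. Median depth was 4624 UMIs in cycling nuclei and 3817 in the others. By library it was 4763 and 4147 in w1, 4766 and 3921 in w2, and 3261.5 and 3295.5 in w4. The part of depth in the values below was not tested. Thrsp was 237 CPM in cycling nuclei (193 to 289) and 254 in the others (212 to 303). The direction differed between libraries, with 242 against 149 in w1, 201 against 388 in w2 and 336 against 538 in w4. Acaca was 539 CPM in cycling nuclei (471 to 614) and 462 in the others (404 to 526), higher in each of the 3 libraries, with overlapping intervals. Scd2 was 120 and 107 CPM.

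Genes whose course over the 38 sums of library and cluster was most like that of a member were named by Pearson's r of log2(CPM + 1), as a description, since the sums share libraries and depth. For Thrsp these were Dennd1a (0.890), Slc25a18 (0.890) and Sox9 (0.873), the last of them a stem cell and astrocyte transcription factor. Cpt1a was closest to the glutamine transporter Slc38a3 (0.951), and Scd2 to Cd81 (0.904), Gnai2 and Ugp2. Acly was closest to another member, Acaca (0.783), while Acaca was closest to Neo1 (0.840). Srebf1 was closest to Slc12a4 (0.823), Fasn to Rimklb (0.787) and Hmgcs1 to Fam228b (0.773). No other pair of members was among the 3 nearest genes of either.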

How the data were processed

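Single-nucleus RNA-seq libraries (10x Chromium v3.1, 3′ end) of w1, w2, w4 and w8 were used. The authors deposited UMI counts per feature and nucleus, made with STARsolo 2.7.4a on mm10 (GRCm38) from exonic and intronic reads without multi-mapped reads, and a table of log2 expression (counts over scran size factors, 1 added) with each nucleus's library, cluster and pseudo-time. UMI counting used default parameters per the study's methods, which in STARsolo keep reads on the strand of the gene, and the strand setting itself is not spelled out. The 14367 nuclei of that table, of 17046 barcodes, were kept, and the authors had removed doublets with scDblFinder and a group of w4 nuclei as a possible outlier mouse. Pairs of libraries shared 1 to 6 barcodes. The members' counts and the deposited log2 values were above 0 in the same nuclei for the 8 members present in both.

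The members and the 5 pathway lists were chosen with earlier results of these data known. For each library, the raw counts of a deposited cluster with at least 10 nuclei were added up and fitted with edgeR 4.0.16 (filterByExpr, TMM, glmQLFit, glmQLFTest, Benjamini-Hochberg adjustment) in R 4.3.3: 29 sums and 13513 genes for the path and astrocytes, with 16 residual degrees of freedom, and 38 sums and 11548 genes with all clusters, with 22. Each library is a pool of mice, and variation between animals was not measured. Levels are CPM with exact Poisson intervals and shares have exact Clopper-Pearson intervals, both for counting error only. Thinning drew 2000 UMIs per nucleus, and a count of 0 was given the limit of 3 counts over the cluster's nuclei in libraries with at least 10 of them. Folds against 0 divide the level of the other cluster by that limit. They leave out counting error in that level and so are not lower bounds. From each list and comparison, the text could name up to 2 called genes that rose most and 2 that fell most. The scripts were tested on simulated data. Alternatives were DESeq2 1.42.0, relative log expression factors, no low-count filter, another minimum of nuclei (5 or 20), no library term, a fold change of 2, thinned counts, another set of clusters in the fit and each library left out. Sequences came from RefSeq (GRCm38.p6). Some items are not reported here.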

Additional observations from a re-analysis of the deposited data

How the results depend on the processing

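Of the 17 calls of members 7 were kept under every alternative that could be fitted: Thrsp in its 4 calls, Cpt1a from RGL to NPC, and Scd2 from RGL to OPC and from OPC to Oligo. No called member changed sign. With DESeq2 6 members were called from astrocytes to RGL, 2 from NPC to NB1, 0 from GCimm1 to GCimm2 and 0 from GCyoung to GCmat1. Of all 13513 genes tested, DESeq2 called 1208, 3525, 813 and 229 at these steps. With relative log expression factors 6 members were called from astrocytes to RGL and 3 from NPC to NB1, beside 1309 and 3985 of all 13513 genes. At a fold change of 2 there were 2 from RGL to NPC and 0 from GCimm2 to GCyoung. Without the library term 0 were called from GCyoung to GCmat1. With thinned counts 2 were called from NPC to NB1, 1 from NB1 to GCimm1 (Thrsp, -1.01), 0 from GCimm1 to GCimm2, 0 from GCyoung to GCmat1 and 1 from OPC to Oligo, Hmgcs1 from astrocytes to RGL was at -1.19 (adjusted p = 0.1757, edgeR), and the level of Hmgcs1 in RGL was 37.5 CPM. The cause of these changes was not tested. Member counts here and below that lack a count over all genes beside them are not read as results about the members.

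Leaving out 1 library gave 2 to 3 members called from astrocytes to RGL, 2 to 4 from RGL to NPC, 1 to 2 from NPC to NB1, 0 to 0 from NB1 to GCimm1, 0 to 1 from GCimm1 to GCimm2, 0 to 3 from GCimm2 to GCyoung, 0 to 1 from GCyoung to GCmat1, 2 to 2 from RGL to OPC and 1 to 1 from OPC to Oligo. The number of genes tested also differed between fits. Thinned counts left 9196 of 13513 for the path and 8561 of 11548 with all clusters, and glia and RGL alone left 4084. Some of the members were themselves left untested in these fits, since they had too few UMIs. A lower count of calls there is thus not by itself a lower share. Over all genes, calls from astrocytes to RGL went from 1295 to 729 (thinned), 813 (without w1) and 818 (without w2), from RGL to NPC from 3992 to 2521 (thinned), from NPC to NB1 from 3964 to 2550 (without w1), and from NB1 to GCimm1 from 1691 to 1089 (fold change of 2) and 780 (without w2). From GCimm1 to GCimm2 they went from 1274 to 813 (DESeq2), 752 (fold change of 2) and 410 (without w2), and from GCimm2 to GCyoung from 2553 to 1655 (fold change of 2), 1653 (thinned) and 487 (without w4). From GCyoung to GCmat1 they went from 520 to 229 (DESeq2), 264 (thinned), 216 (without w4) and 219 (without w8), from RGL to OPC from 3433 to 1960 (glia and RGL alone) and 2225 (thinned), and from OPC to Oligo from 2304 to 1429 (thinned). Of the calls from astrocytes to RGL 49.7% were higher in RGL, against 34.8% with relative log expression factors and 26.3% with DESeq2. DESeq2 also moved this share from 49.1% to 37.2% (GCimm2 to GCyoung), from 41.5% to 24.5% (GCyoung to GCmat1), from 50.1% to 40.1% (NPC to NB1) and from 48.7% to 59.8% (RGL to OPC). The labels give no replicate numbers, and clusters of 1 library were paired through the library term. Depth left Scd1 untested, and a single mouse could not be read from a pool.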
